A study of Mus musculus with 8 samples.

Results

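Oxidative phosphorylation is carried out by 5 enzyme complexes of the mitochondrial inner membrane, most of whose subunits are encoded in the nucleus. The 97 nuclear genes described here were chosen by symbol from 21887 protein-coding genes: those beginning with Nduf, Uqcr, Cox4, Cox5, Cox6, Cox7, Cox8 or Atp5, plus Sdha, Sdhb, Sdhc, Sdhd and Cyc1. They comprised 39 subunit genes of complex I (NADH dehydrogenase), 8 complex I assembly factors, 4 genes of complex II (succinate dehydrogenase), 9 of complex III (cytochrome bc1 complex), 20 of complex IV (cytochrome c oxidase) and 17 of complex V (ATP synthase). Ndufa4, now known as a subunit of complex IV, and its paralog Ndufa4l2 were counted with complex IV.

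The mark measured was acetylated lysine 9 of histone H3 (H3K9ac), which lies at active promoters, by chromatin immunoprecipitation and sequencing of whole cerebellum. The knock-in libraries (n = 4) came from symptomatic C57BL/6 mice aged 9 weeks, heterozygous for an allele labelled 266Q, a model of spinocerebellar ataxia type 7 (SCA7). The wild type libraries (n = 4) came from littermates of the same strain and age. SCA7 is caused by a glutamine expansion in ataxin-7, which belongs to the histone acetyltransferase complex SAGA. Because nothing in the labels ties a replicate to its own animal, the replicates may be technical. The p-values treat libraries as independent and do not measure the spread between animals.

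Each library was a list of peaks, and a gene was counted as detected if a peak overlapped 1 kb either side of either gene end. Replicates 1 and 2 of both genotypes were long lists of 7735 to 11409 broad peaks (median widths of 1065 to 1246 bp), and replicates 3 and 4 were short lists of 1266 to 5571 narrow peaks (median widths of 132 to 148 bp). The depth of the libraries is unknown, so values within replicates 1 and 2 stand beside pooled ones. All 10 granule cell markers had a peak in some library, as did 4 of 8 Purkinje cell markers, whereas the Purkinje genes Pcp2, Car8, Ppp1r17 and Pcp4 had none. None of 10 genes of other tissues and muscle had a peak. In whole tissue, fewer cells of a type and less acetylation per cell cannot be told apart.

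As background, electrons enter the chain at complexes I and II and pass through complexes III and IV to oxygen, and complex V uses the resulting proton gradient to make ATP. Many nuclear respiratory genes are transcribed from CpG-rich promoters bound by NRF1, the ETS-family factor GABP, YY1 and Sp1. Cerebellar neurons depend on this pathway to sustain firing.

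The sequences below are the promoters of 6 members, the first by number of libraries with a peak, and then by mean score percentile in replicates 1 and 2, among those with a start in the RefSeq promoter table. They are set beside those of 2 tissue-restricted isoforms of complex IV without a peak. The gene-end peaks of Atp5d lay away from the stretch shown, as described with that gene. Each is the 150 bases before the annotated start, from RefSeq on GRCm38.p6. Capitals mark matches on either strand to the palindromic NRF1 consensus, CCGGAAG (ETS), GGGCGG (Sp), CCAAT, AAGATGGC (YY1) or TATAAA, and overlapping matches would run together.
Uqcrh: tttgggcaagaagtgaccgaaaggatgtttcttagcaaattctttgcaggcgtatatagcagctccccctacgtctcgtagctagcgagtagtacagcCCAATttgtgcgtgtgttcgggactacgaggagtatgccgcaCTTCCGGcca
Atp5d: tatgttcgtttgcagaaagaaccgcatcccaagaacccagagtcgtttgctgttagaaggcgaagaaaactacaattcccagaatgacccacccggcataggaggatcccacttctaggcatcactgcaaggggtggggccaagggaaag
Ndufv2: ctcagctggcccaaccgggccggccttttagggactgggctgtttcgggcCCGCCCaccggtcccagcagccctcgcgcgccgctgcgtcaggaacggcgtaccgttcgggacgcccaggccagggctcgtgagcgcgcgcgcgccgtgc
Atp5h: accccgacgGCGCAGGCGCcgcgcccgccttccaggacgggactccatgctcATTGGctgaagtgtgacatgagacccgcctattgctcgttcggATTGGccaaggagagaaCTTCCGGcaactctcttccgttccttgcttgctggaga
Atp5j: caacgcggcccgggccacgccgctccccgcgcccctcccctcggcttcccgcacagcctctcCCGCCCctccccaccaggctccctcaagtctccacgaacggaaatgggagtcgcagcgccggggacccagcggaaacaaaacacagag
Cox6a1: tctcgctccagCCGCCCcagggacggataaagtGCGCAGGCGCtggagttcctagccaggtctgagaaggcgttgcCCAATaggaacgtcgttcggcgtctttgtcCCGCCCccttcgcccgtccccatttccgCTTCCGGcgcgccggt
Cox6b2: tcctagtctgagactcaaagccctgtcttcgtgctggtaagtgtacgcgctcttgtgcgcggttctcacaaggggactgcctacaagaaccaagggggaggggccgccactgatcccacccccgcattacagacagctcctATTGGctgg
Cox7a1: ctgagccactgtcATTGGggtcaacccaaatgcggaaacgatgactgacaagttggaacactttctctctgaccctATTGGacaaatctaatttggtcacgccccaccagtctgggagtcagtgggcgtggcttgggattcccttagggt

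The positions are chr4:116075071-116075220 on the minus strand for Uqcrh, chr10:80142125-80142274 on the plus strand for Atp5d, chr17:66101560-66101709 on the minus strand for Ndufv2, chr11:115419920-115420069 on the minus strand for Atp5h, chr16:84835626-84835775 on the minus strand for Atp5j, chr5:115348959-115349108 on the minus strand for Cox6a1, chr7:4753095-4753244 on the minus strand for Cox6b2 and chr7:30184021-30184170 on the plus strand for Cox7a1. The 300 bases around the start (250 before and 50 after) held 43 CpG dinucleotides at Atp5j, 39 at Ndufv2, 32 each at Atp5h and Cox6a1, 15 at Uqcrh and 14 at Atp5d. Cox6b2 held 10 and Cox7a1 held 7. Atp5h and Cox6a1 carried both an NRF1 and an ETS match in the stretch shown, and Atp5d carried none of the 6 motifs.

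NRF1, ETS and YY1 motifs were more frequent among member promoters than among all promoters. The NRF1 motif was in 20 of 83 promoter entries of 78 members (24.1%), against 6.38% of all 21263 entries of the same length. The ETS motif was in 22.9% of member entries against 11.6%, and the YY1 motif in 13.3% against 3.05%. The Sp motif was in 43.4% against 46.2%, CCAAT in 42.2% against 38.2% and TATAAA in 10.8% against 12.6%. The NRF1 motif was in 17 of 53 entries of members detected in at least 2 of the 4 long lists (32.1%) and in 3 of 30 entries of the other members (10%). The same shares over all genes were 11.2% and 3.30%. For the ETS motif the shares were 22.6% and 23.3% among members, and 16.7% and 8.31% over all genes. For the YY1 motif they were 13.2% and 13.3% among members, and 4.68% and 2.01% over all genes. The sets also differed in base composition. The median number of CpG dinucleotides was 20 in member entries, against 13 in all entries. Between entries of genes detected in at least 2 long lists and the others, it was 22 and 17 among members. Over all genes it was 23 and 6. The part of CpG content in the motif shares was not tested. A match describes the letters of the window and is not a binding site.

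Most members carried H3K9ac at a gene end, but the complexes differed. Of the 97 members, 76 had a peak in at least 1 library (78.4%), against 45% of all protein-coding genes. All 17 genes of complex V and all 4 of complex II had one, as did 32 of 39 of complex I, 7 of 8 assembly factors, 7 of 9 of complex III and 9 of 20 of complex IV. A peak in all 4 long lists was found at 20 members (20.6%), against 22.9% of all genes. These were 8 genes of complex V, 6 of complex I, 3 of complex III, 2 of complex IV and 1 assembly factor. Only 10 members had a peak in a short list (10.3%, against 12.5% of all genes).

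Detected members numbered 57, 54, 8 and 2 in knock-in replicates 1 to 4, against 45, 34, 4 and 2 in wild type replicates 1 to 4. The first of these shares was 58.8% in knock-in (exact Clopper-Pearson 95% interval of 48.3 to 68.7, for counting error only), against 46.4% in wild type (36.2 to 56.8). These intervals treat the genes as independent draws, so they do not compare the genotypes. Both long knock-in lists exceeded both long wild type lists, and the short lists overlapped, as they did over all genes. Over all 4 libraries the members' share averaged 31.2 ± 30.2% in knock-in and 21.9 ± 22.2% in wild type (SD, n = 4 each), a difference of 9.28 percentage points that is smaller than either SD. All genes averaged 21.7 ± 18.9% in knock-in and 16.6 ± 15.4% in wild type, a difference of 5.03 points. Within replicates 1 and 2 the members averaged 57.2% in knock-in and 40.7% in wild type. All genes averaged 37.7% in knock-in and 29.8% in wild type there. Within replicate numbers 1 to 4 the members' difference was 12.4, 20.6, 4.12 and 0 points. Leaving out a library changed the balance of long and short lists between genotypes. The members' difference was then 0.0859, 1.12, 16.9 and 19.0 points without knock-in replicates 1 to 4, and 17.4, 13.7, 3.35 and 2.66 points without wild type replicates 1 to 4. With lists of equal length, which left 7 members with a peak, it was 0.

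**Figure D1:**
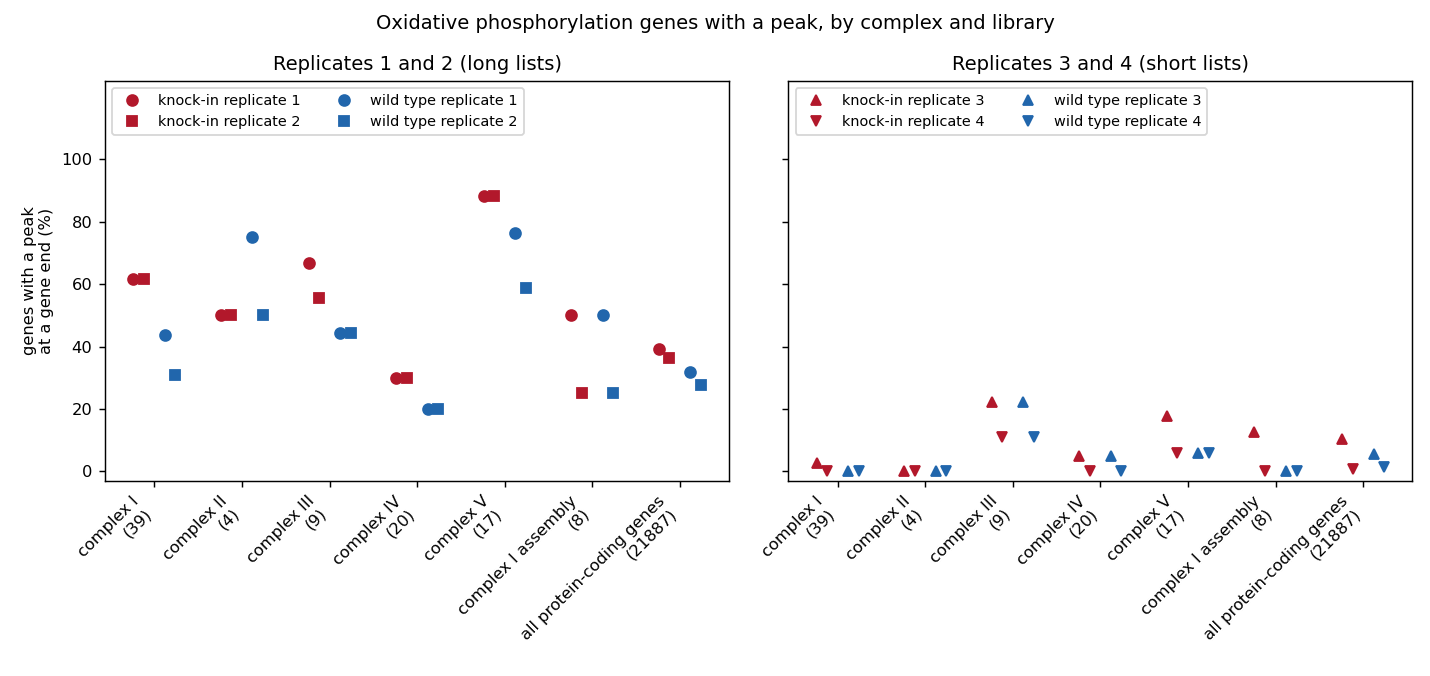
Share of genes with a peak at a gene end, in percent, by complex and for all protein-coding genes, with 1 point per library, for replicates 1 and 2 and for replicates 3 and 4. In the long lists complex V lies at 58.8% to 88.2% and complex IV, tissue-restricted isoforms included, at 20% to 30%.

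Of complexes I to V, complex V was detected most and complex IV least in each of the 4 long lists. Complex V stood at 88.2% in both long knock-in lists, against 76.5% and 58.8% in wild type replicates 1 and 2. Complex I stood at 61.5% in both long knock-in lists, against 43.6% and 30.8% in wild type. For these complexes, and for complexes III and IV, the long knock-in lists lay above the long wild type lists. All protein-coding genes followed the same order, at 39.1% and 36.2% in knock-in, against 31.9% and 27.8% in wild type. Complex III stood at 66.7% and 55.6% in knock-in, against 44.4% in both wild type lists. Complex IV stood at 30% in both knock-in lists, against 20% in both wild type lists. Its 20 genes include 8 tissue-restricted isoforms, so its low rank depends on which genes are counted. The 12 general subunits alone stood at 50% in both knock-in lists, the same as complex II. In wild type replicates 1 and 2 they stood at 33.3% and 25%. Cox5a, whose peaks lay at a start away from the gene end, was not counted as detected. Complex II did not follow this order, with 2 of 4 genes in each knock-in list, against 3 and 2 in wild type.

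Over all 4 libraries the difference between knock-in and wild type was 12.8 percentage points for complex I, -6.25 for complex II, 8.33 for complex III, 5 for complex IV and 13.2 for complex V. Each was smaller than the SD of either genotype, a spread that includes the gap between long and short lists. Within replicate numbers 1 to 4 the difference was 17.9, 30.8, 2.56 and 0 points for complex I and 11.8, 29.4, 11.8 and 0 points for complex V. It was 22.2, 11.1, 0 and 0 points for complex III and 10, 10, 0 and 0 points for complex IV. Complex II stood at -25 points in number 1 and 0 in the other numbers, and at 12.5 points over all libraries with peaks scoring 100 or more, the opposite direction. Leaving out 1 library, the difference ranged over 2.78 points (without knock-in replicate 1 or 2) to 23.3 (without knock-in replicate 4) for complex I, and over 0.490 to 27.9 for complex V with the same libraries left out. It ranged over -0.926 (without knock-in replicate 1) to 17.6 (without knock-in replicate 4) for complex III and 0.417 to 10.4 for complex IV. For complex II it ranged over -16.7 (without wild type replicate 3 or 4) to 8.33 (without wild type replicate 1).

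No member passed the test of a difference between genotypes. Genes with a peak in 1 to 7 libraries were tested by a two-sided conditional exact test, which weighs each library by its overall odds of detection, with Benjamini-Hochberg adjustment over 9826 genes. It called 0 of 76 members and 0 of 9826 genes (0%). The smallest p this test could give was 0.027 for a gene in 2 libraries and 0.198 for a gene in 1. After adjustment neither could be called, which covers 17 and 20 members. Because the odds were fitted over all genes, a shift shared by most genes would not be called either. Fisher's exact test of 4 libraries against 4 cannot give a p below 0.0286 and called 0, which says nothing about the genes. At an unadjusted conditional exact p under 0.05 stood 2 members (2.63%) and 90 of all genes (0.916%). More knock-in than wild type libraries held a peak at 40 of the 76 members (52.6%, against 48% of all genes with a peak), and fewer did at 12 (15.8%, against 11.6%). The number was the same at 24 (31.6%, against 40.4%), and it differed by 2 or more libraries at 12 (15.8%, against 9.45%). Of 43 members in both long knock-in lists, 7 were in neither long wild type list (16.3%, against 10.4% of all such genes). The reverse held for 1 of 24 (4.17%, against 0.732%).

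**Figure D2:**
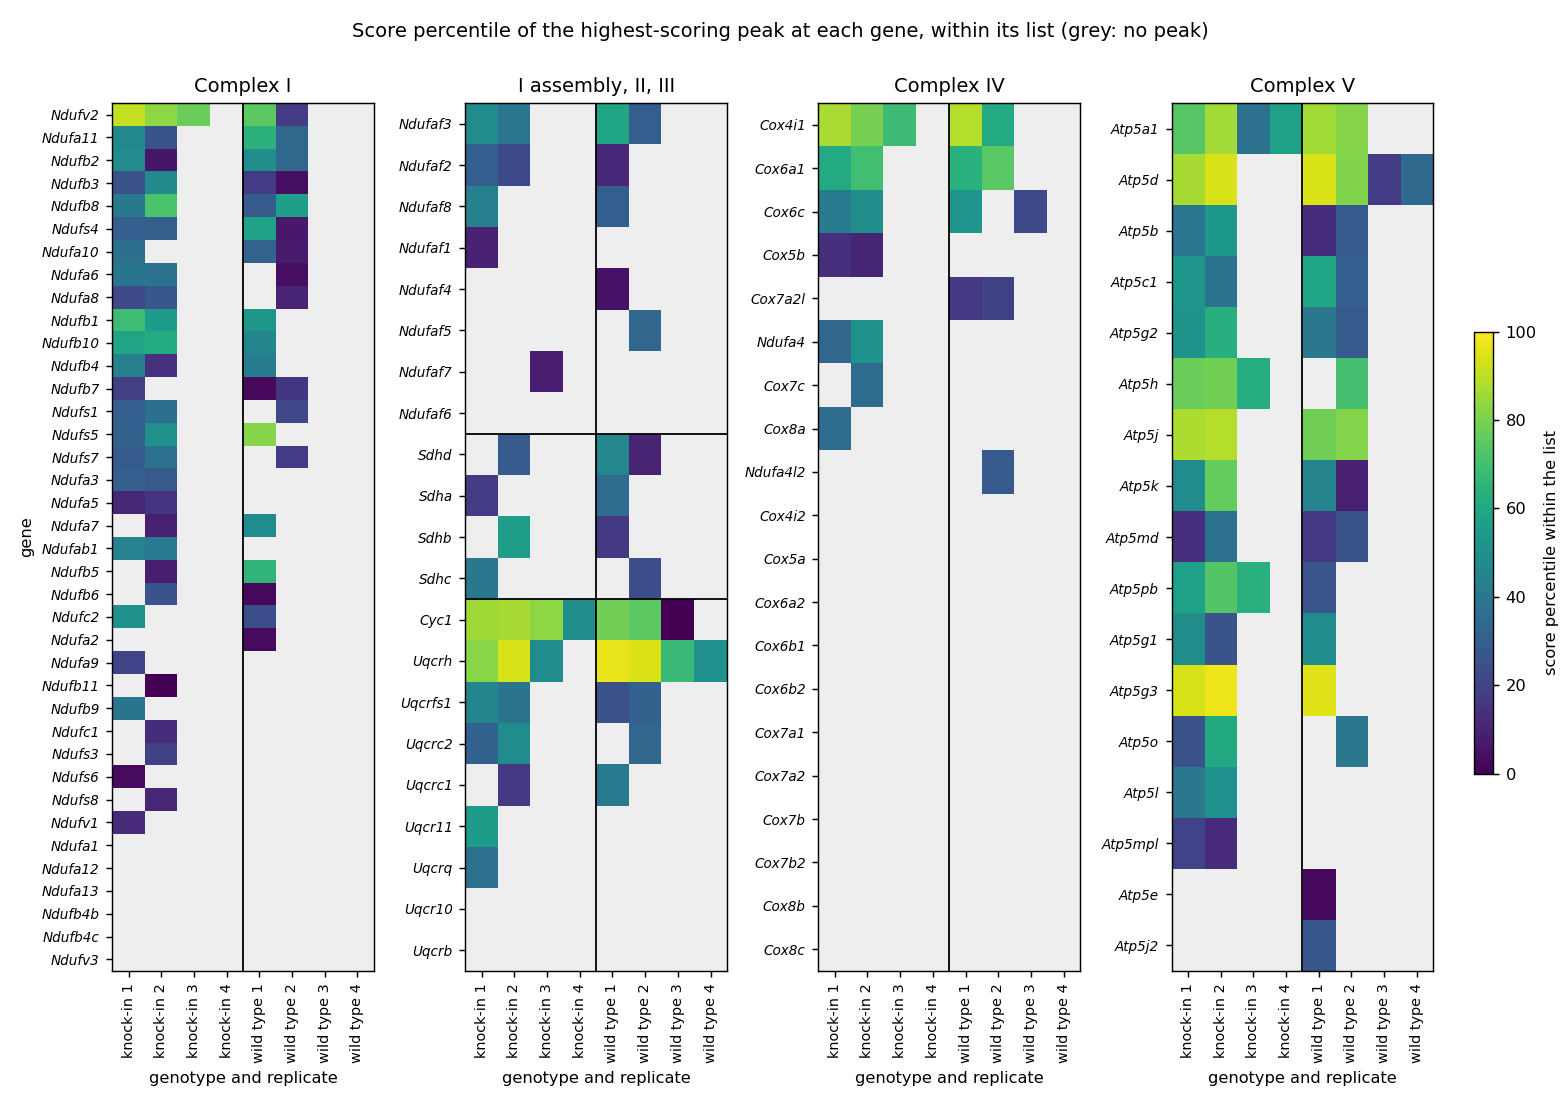
Highest score percentile among the peaks at the members shown (rows, by complex) in each library (columns, knock-in left of wild type), with grey for no peak. Cyc1 and Uqcrh have a peak in 7 libraries, and 11 genes of complex IV have none.

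Complex I genes were detected almost entirely in the long lists. Of the 7 core subunit genes, which carry the redox chemistry, 4 and 5 were marked in the long knock-in lists, against 1 and 3 in wild type. Ndufv2, an iron-sulphur subunit, was in knock-in replicates 1, 2 and 3 and wild type replicates 1 and 2. Its peaks at the start were 921, 1025 and 179 bp wide in knock-in, against 957 and 831 bp in wild type. Both long knock-in lists also held a peak at its other end, which in knock-in replicate 1 also lay in the window of Ankrd12. Ndufs1 and Ndufs7 were each in both long knock-in lists and wild type replicate 2. Ndufv1, Ndufs3 and Ndufs8 were in 1 knock-in library each.

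Among the 32 accessory subunit genes of complex I, 20 and 19 were marked in the long knock-in lists, against 16 and 9 in wild type, and 0 in any short list. Ndufa11, Ndufb2, Ndufb3, Ndufb8 and Ndufs4 were in all 4 long lists. The peaks of Ndufa11 also lay in the window of Vmac, and those of Ndufb3 in that of Fam126b. The peak of Ndufa11 in wild type replicate 1 lay wholly outside the gene. So did those of Ndufb3 in knock-in replicate 1 and wild type replicate 2. The authors' peak score, used here only as a percentile within its list, placed Ndufb8 at 40 and 71.8 in knock-in, against 28.6 and 56.3 in wild type. Ndufa3, Ndufa5 and Ndufab1, the mitochondrial acyl carrier protein, were in both long knock-in lists and no wild type library (conditional exact p of 0.501 and adjusted p of 1 for each). The peaks of Ndufa5 also lay in the window of Asb15, and that of Ndufa3 in knock-in replicate 1 in that of Oscar. Ndufa1, Ndufa12, Ndufa13, Ndufb4b, Ndufb4c and Ndufv3 had no peak at a gene end. Within 1 kb of the annotated start of Ndufa13, which lay 538 bp from the gene end, a peak was present in no knock-in library, against wild type replicate 4. That peak did not cover the start. Ndufb4b and Ndufb4c are named as copies of Ndufb4, and whether reads were split among them was not tested. Of the assembly factors, Ndufaf3 was in all 4 long lists, Ndufaf2 in 3 of them, Ndufaf8 in replicate 1 of both genotypes and Ndufaf6 in none. Ndufaf7 had a peak in knock-in replicate 3 alone, the 1 of 17 short-list peaks at members that overlapped no long list.

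Each gene of complex II had a peak in 2 or 3 long lists and in no short list. Sdha, the flavoprotein, was in replicate 1 of both genotypes. Sdhb, the iron-sulphur subunit, was in knock-in replicate 2 and wild type replicate 1. The membrane anchor gene Sdhc was in knock-in replicate 1 and wild type replicate 2, and the other anchor gene, Sdhd, was in knock-in replicate 2 and wild type replicates 1 and 2. Score percentiles ranged over 17.5 to 56.1 in knock-in and 9.62 to 46.4 in wild type. Peaks of Sdha, Sdhc and Sdhd also lay in the window of another gene.

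Complex III held the members detected in the most libraries. Cyc1, which encodes cytochrome c1 (chromosome 15, 76343513 to 76346260), had a peak in all 4 knock-in libraries and in wild type replicates 1, 2 and 3. The peaks were 1620, 1101, 189 and 115 bp wide in knock-in replicates 1 to 4, against 2115, 1538 and 150 bp in wild type replicates 1 to 3. Their score percentiles were 85.8, 86.8, 83.2 and 49.3 in knock-in, against 78.9, 74.97 and 0.38 in wild type. All lay at the lower-coordinate end and in the window of no other gene. The groups overlapped (conditional exact p of 0.385, adjusted p of 1).

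Uqcrh, the hinge protein gene whose promoter is shown above, was in knock-in replicates 1, 2 and 3 and in all 4 wild type libraries. Its peaks lay mostly upstream of the start, reaching 2386 and 1845 bp upstream in the long knock-in lists, against 2096 and 1812 bp in wild type. They also lay in the window of Lrrc41, so a peak of Uqcrh cannot be told apart from one of its neighbour. Uqcrfs1, the Rieske iron-sulphur protein, was in all 4 long lists at percentiles of 45.5 and 38.7 in knock-in, against 24.9 and 30.7 in wild type. Uqcrc2, a core protein, was in both long knock-in lists and wild type replicate 2. Uqcr10 and Uqcrb had no peak.

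Complex IV divided by isoform. Of 12 general subunit genes, 6 and 6 were marked in the long knock-in lists, against 4 and 3 in wild type. Of 8 tissue-restricted isoform genes, 0 had one in any knock-in library, against 1 in wild type replicate 2. That 1 was Ndufa4l2, whose peak also lay in the window of Stac3. Cox4i1 was in knock-in replicates 1, 2 and 3 and wild type replicates 1 and 2, whereas Cox4i2 had no peak. The peaks of Cox4i1 stood at percentiles of 87.2, 79.4 and 68.5 in knock-in, against 89.1 and 60.9 in wild type, and also lay in the windows of Emc8 and Gm27021. Cox6a1 was in all 4 long lists, at percentiles of 61.0 and 69.8 for the knock-in peaks, against 63.9 and 74.6 for the wild type peaks, whereas Cox6a2 had none. The isoform genes Cox6b2, Cox7a1, Cox7b2, Cox8b and Cox8c had no peak either.

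Other general subunits of complex IV were marked unevenly. Cox6c was in both long knock-in lists and wild type replicates 1 and 3. Cox5b and Ndufa4 were in both long knock-in lists and no wild type library (conditional exact p of 0.501 and adjusted p of 1 for each). The peaks of Ndufa4 also lay in the window of Phf14. Cox7a2l, known for its part in joining complexes III and IV into supercomplexes, had a peak in no knock-in library, against wild type replicates 1 and 2 (conditional exact p of 0.027, adjusted p of 1). Those peaks, 1081 and 552 bp wide, stood at percentiles of 17.0 and 19.8 and lay wholly upstream of the annotated start. Cox8a was in knock-in replicate 1 and Cox7c in knock-in replicate 2. Cox5a, Cox6b1, Cox7a2 and Cox7b had no peak at a gene end. The annotated start of Cox5a lay 3904 bp inside the gene table's end. A peak within 1 kb of that start was in knock-in replicates 1, 2 and 3 (percentiles of 76.8, 89.0 and 7.62) and wild type replicates 1 and 2 (83.2 and 46.3).

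In complex V, 4 of the 5 genes of the F1 head, which holds the catalytic sites, were in all 4 long lists. They were Atp5a1, Atp5b, Atp5c1 and Atp5d, and Atp5e was in wild type replicate 1. Atp5b, the catalytic beta subunit, had peaks over its start of 1546 and 1412 bp in knock-in, against 892 and 922 bp in wild type. Atp5a1, the alpha subunit, was in all 4 knock-in libraries and wild type replicates 1 and 2 (conditional exact p of 0.0907, adjusted p of 1), with peaks also in the window of Haus1.

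Atp5d, the delta subunit, was in knock-in replicates 1 and 2 and all 4 wild type libraries (conditional exact p of 0.0283, adjusted p of 1). These peaks lay away from the start whose promoter is shown above. The gene table begins Atp5d 3577 bp before that start, and the peaks, which reached up to 5219 bp upstream of it in knock-in and 5123 bp in wild type, did not cover it. Some also lay in the window of Cbarp. At the annotated start itself a peak was present in knock-in replicate 2 and wild type replicate 1.

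The 3 c ring genes, which encode the proton-driven rotor, were all in both long knock-in lists, against 3 and 1 in wild type replicates 1 and 2. Atp5g3 had percentiles of 93.8 and 97.4 in the long knock-in lists, against 95.3 in wild type replicate 1. Its annotated start lay 1138 bp from the gene end, and counted at that start it was in replicates 1, 2 and 3 of both genotypes. Atp5g2 was in all 4 long lists, and Atp5g1 was in both long knock-in lists and wild type replicate 1.

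Among 9 stalk and membrane genes, 8 and 8 were marked in the long knock-in lists, against 5 and 5 in wild type. Atp5h was in knock-in replicates 1, 2 and 3 and wild type replicate 2, and Atp5pb in knock-in replicates 1, 2 and 3 and wild type replicate 1 (conditional exact p of 0.0533 and adjusted p of 1 for each). Peaks of Atp5h spanned 2563 and 2186 bp in the long knock-in lists, against 1315 bp in wild type replicate 2, and all peaks of Atp5h lay in the window of Kctd2 and all those of Atp5pb in that of Wdr77. Atp5j, Atp5k and Atp5md were in all 4 long lists. Peaks of Atp5j lay in the window of Gabpa, which encodes a subunit of GABP. Atp5l and Atp5mpl were in both long knock-in lists and no wild type library (conditional exact p of 0.501 and adjusted p of 1 for each).

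Member peaks ranked low within the long lists. Their median percentile was 39.9 and 39.0 in knock-in replicates 1 and 2, where all gene-end peaks had 56.4 and 60.9. It was 43.2 and 29.1 in wild type replicates 1 and 2, where all gene-end peaks had 64.8 and 56.5. Among all genes in both long knock-in lists, the share missing from both long wild type lists was 59.4% at a mean knock-in percentile of 0 to 20, 30.9% at 20 to 40 and 9.95% at 40 to 60. It was 0.941% at 60 to 80 and 0.564% at 80 to 100. The 7 members missing from both wild type lists all lay below 60, as 3 of 3, 1 of 14 and 3 of 13 members in those bins. The part of peak rank in the members' differences was not tested.

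**Figure D3:**
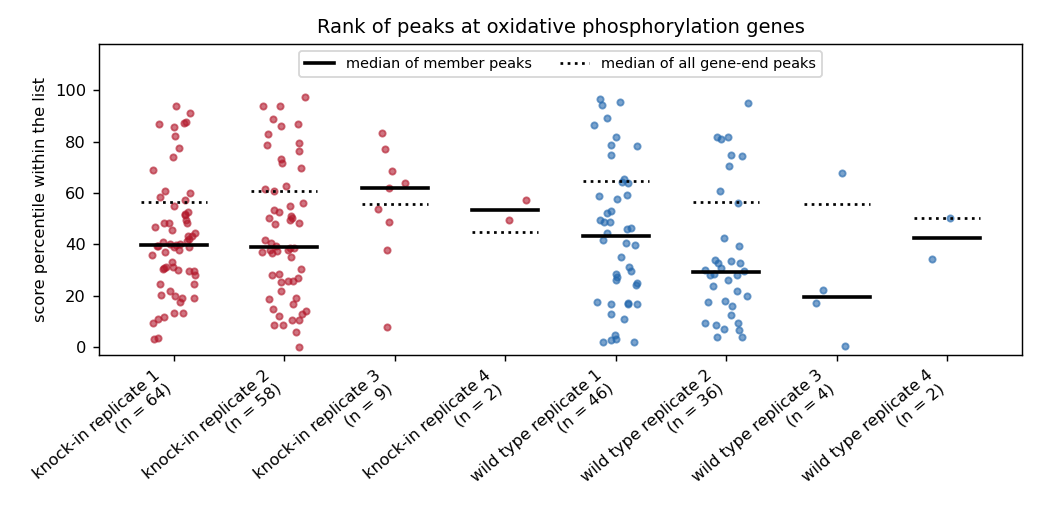
Score percentile within the list of each peak at a member (points), by library, with the median of member peaks (solid line) and of all gene-end peaks (dotted line). In the long lists the members' medians lie at 29.1 to 43.2 and those of all gene-end peaks at 56.4 to 64.8.

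At the 78 members with an annotated start, peaks over the start extended further into the gene than upstream in the median of each long list, as they did over all genes. A peak covered the start at 56.4% and 53.8% of them in the long knock-in lists, against 41.0% and 26.9% in wild type. For all 17492 genes with a start the shares were 35.9% and 32.7% in knock-in, against 28.3% and 23.5% in wild type. Member peaks over the start reached a median of 384.5 and 447 bp upstream and 865 and 771.5 bp downstream in knock-in, against 398.5 and 282 bp upstream and 841.5 and 738 bp downstream in wild type. Over all genes the medians were 452 and 428 bp upstream and 884.5 and 863 bp downstream in knock-in, against 426 and 352 bp upstream and 887 and 791 bp downstream in wild type. A start of another gene lay head to head within 1 kb of 22 of the 78 members (28.2%), against 8.48% of all genes. At these members, peaks over the start reached medians of 544 and 744 bp upstream and 795 and 687 bp downstream in knock-in. In wild type they reached 613 and 360.5 bp upstream and 807 and 742 bp downstream. In knock-in replicate 2 (14 peaks) they thus reached further upstream than downstream. Of the 76 detected members, 39 shared a peak with the window of another gene (51.3%). The same share over all detected genes was not computed, so this value does not set the members apart.

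**Figure D4:**
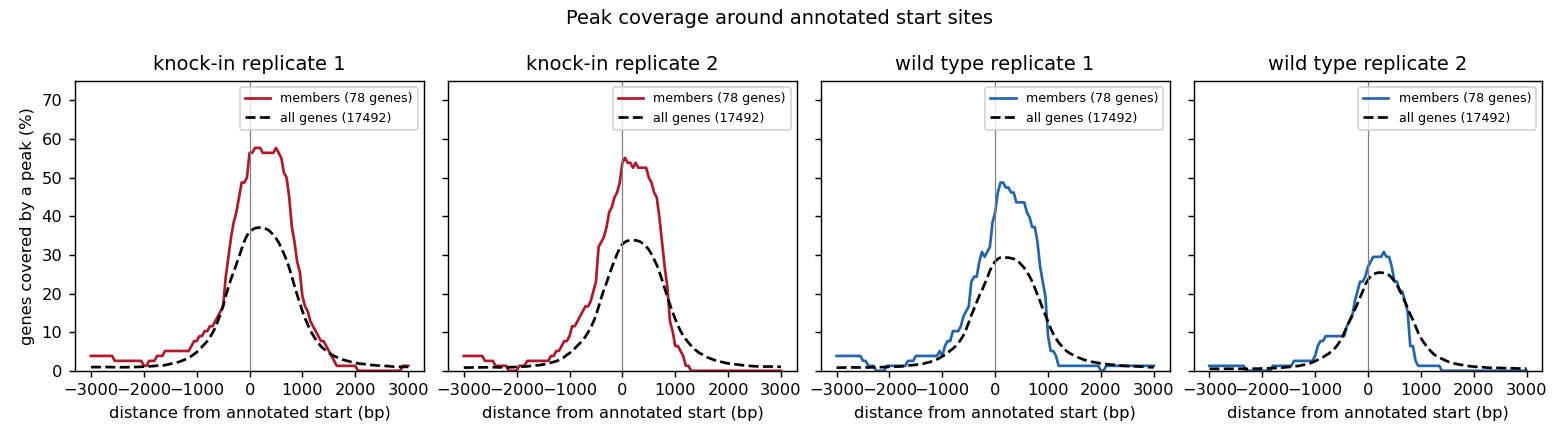
Share of genes covered by a peak, in percent, by distance from the annotated start in bp, for members (solid) and all genes (dashed) in the 4 long lists. Member coverage at the start is 56.4% and 53.8% in the long knock-in lists, against 41.0% and 26.9% in the long wild type lists.

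Other genes of the pathway gave no call either. Over all protein-coding genes 45% had a peak, and of these 48% were in more knock-in libraries and 11.6% in fewer. Of 38 assembly and import factors outside the symbol rule, 30 had a peak, 16 in more knock-in libraries and 2 in fewer. Of 12 genes of mobile carriers and coenzyme Q, 9 had a peak, 4 in more and 1 in fewer, and Cycs, cytochrome c, was in 2 libraries from knock-in mice and 1 from wild type. Of 17 genes of the tricarboxylic acid cycle and pyruvate dehydrogenase, 15 had a peak, 8 in more and 1 in fewer. Of 18 regulators of mitochondrial genes, 13 had a peak, 3 in more and 2 in fewer. Nrf1 was in 3 libraries of each genotype and Gabpa in 2 of each. Mterf1a had a peak in 0 libraries from knock-in mice, against 2 from wild type (conditional exact p of 0.027, adjusted p of 1).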

How the data were processed

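Groups and replicate numbers were taken from sample titles. Per the submitters' processing notes, Bowtie2 and build mm10 were used, and per the file headers peaks were called for each library with MACS in Galaxy. Its settings, and whether an input served as control, are not stated by these sources. The deposited score of each peak is the authors' own value on an unstated scale, and served here for ranking inside 1 list at a time. Of 52676 peaks, 15 had a start below 0.

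Gene ends came from a RefSeq table of GRCm38.p6, and starts and strand from its promoter table, which covered 78 of the 97 members. The members and lists were chosen with earlier results of these data known. Genes named are those that differ by 2 or more libraries, those detected most in each complex and role, those without a peak, complex II, and isoform families; 1 gene is counted but not reported here by name. The conditional exact test took library odds fitted over all genes, with a threshold of 0.05 (Python 3.11.15, scipy 1.17.1). It was tried on data simulated from the same odds, with libraries independent. There 200 genes had a peak in all libraries of 1 genotype and in none of the other. The test recovered 100% of these with 0 false calls. No member had that pattern, so the simulation says nothing about weaker differences or about libraries that deviate together. Same-numbered libraries deviated together (r of 0.487, 0.388, 0.389 and 0.754 for numbers 1 to 4), so the replicate number was also used as a block. Libraries of different number but the same list type also did, with r of 0.277 to 0.547. Alternatives were other windows, scores, list lengths and sets of libraries.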

Additional observations from a re-analysis of the deposited data

Results flagged for a closer look

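The share of tissue-restricted complex IV isoform genes with a peak was 12.5% in wild type replicate 2 and 0% in the other wild type libraries, so that 1 library stood apart from the rest of its group. It rests on 1 gene, Ndufa4l2, of 8. Of 34 groups examined in this way 1 stood out. The rule flags any group in which all libraries but 1 are at 0%, whatever the value of that 1. Its nominal rate of about 1 in 20 is for continuous values, which these counts are not.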

How the results depend on the processing

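Of 430 alternative values, 19 counts moved by more than 1.5 times, none of them a count of called members. The differences in percentage points also moved widely, within the SD between libraries. With the replicate block 0 genes were called, as without it, so the pairing changed no call. Unadjusted conditional exact p-values rose with it at the members named with the smallest ones. The p was 0.130 for Atp5d (0.0283 without the block), 0.416 for Atp5a1 (0.0907) and 0.037 for Cox7a2l (0.027). It also rose from 0.0533 for Atp5h and Atp5pb. With the block 1 member and 50 genes stood under 0.05, against 2 and 90 without. Leaving out 1 library at a time gave 0 to 1 called genes, with 1 without wild type replicate 2. Members detected in any library numbered 76, against 44 with scores of 100 or more, 7 with lists of equal length and 10 in replicates 3 and 4. Members in more knock-in libraries numbered 40, against 4 with equal lists, 7 in replicates 3 and 4, and 37 to 64 leaving out 1 library. Members in fewer numbered 12, against 2 with scores of 100 or more, 3 with equal lists, 3 in replicates 3 and 4, and 9 to 36 leaving out 1 library. The leave-one-out counts compare shares of 3 and 4 libraries, which are seldom equal by construction. Members in all 4 long lists numbered 20, against 7 with scores of 100 or more and 0 with equal lists; replicates 3 and 4 give no value. Gene ends together with annotated starts, an alternative chosen after seeing the data, moved none of these counts by over 1.5 times. Leaving out 1 library, the members' difference ranged over 0.0859 to 19.0 points, and replicates 1 and 2 gave 16.5. Depth is unknown, so a missing peak does not show that the mark is absent.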
